A study of Mus musculus with 8 samples.

Results

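Complement is a group of plasma and cell-surface proteins, here represented by 9 genes: the C1q subunit genes C1qa, C1qb and C1qc, the central component C3, the convertase components C2 and Cfb, the anaphylatoxin receptor genes C3ar1 and C5ar1, and the inhibitor gene Serping1. The genes were listed with earlier results of these data known, and their spots were found by symbol in the array's probe annotation. A named spot was found for 8 of these 9 genes, with 18 spots in all, among 22485 gene symbols on 33026 named spots. C3 had no named spot in the annotation used and was not analysed here. Enough arrays carried a value for 7 of the genes to be tested, and C5ar1 is given by its values alone.

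RNA from surgically separated adrenal medulla was hybridised to 8 two-colour Agilent mouse arrays. SDHD-ESR mice (4 arrays) have 1 floxed SdhD allele, 1 null allele and the Cre-ER transgene, whose Cre recombinase becomes active on binding tamoxifen and deletes the floxed allele in many tissues rather than in chromaffin cells alone. The +/- mice (4 arrays) have the same floxed and null alleles without Cre. The +/+ mice, with a floxed and a normal allele and no Cre, provided a single RNA pool of 8 animals that was the common partner on every array. All animals were males on a 129/SvJ background, aged 10 weeks in the labels, that had received tamoxifen at 100 µg/g on 4 days, and tissue was taken 1 week after the first injection. Each array held the RNA of 2 mice, so 8 mice stood behind each of SDHD-ESR and +/-. Controls thus received tamoxifen but had no Cre, so deletion of SdhD and activation of Cre as such cannot be told apart.

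In the classical pathway C1q, a protein built of A, B and C chains, binds antibody or altered cell surfaces and starts a chain of proteases that cleaves C4 and C2. In the alternative pathway factor B takes the place of C2, and both routes end in enzymes that cleave C3 and then C5, whose small fragments attract and activate leukocytes through C3ar1 and C5ar1. Most plasma complement is made by the liver, whereas C1q is made mainly by tissue macrophages and microglia.

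The 3 C1q genes lie side by side on mouse chromosome 4 within 18719 bases (GRCm38.p6, 136880126 to 136898844), C1qb first, then C1qc 3600 bases further on and C1qa another 2979 bases on. Because the results turn on these neighbours, the 250 bases before the RefSeq start of C1qb and C1qc are shown, each read 5′ to 3′ on the minus strand. The C1qb stretch is chr4:136886201-136886450 and that of C1qc is chr4:136892915-136893164. Capitals mark the letters GAGGAA, the core recognised by the myeloid factor PU.1, or the same core on the other strand (TTCCTC).
C1qb: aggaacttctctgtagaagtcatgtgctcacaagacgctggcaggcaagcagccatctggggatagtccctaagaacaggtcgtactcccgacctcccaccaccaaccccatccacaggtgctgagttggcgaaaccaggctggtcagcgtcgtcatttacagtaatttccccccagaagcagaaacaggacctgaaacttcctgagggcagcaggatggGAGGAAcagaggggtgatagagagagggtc
C1qc: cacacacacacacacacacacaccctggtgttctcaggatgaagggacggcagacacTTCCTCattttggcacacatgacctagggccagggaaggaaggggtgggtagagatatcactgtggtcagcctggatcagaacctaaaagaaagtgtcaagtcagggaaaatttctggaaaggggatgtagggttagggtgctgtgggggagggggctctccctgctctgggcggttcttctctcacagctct
The core stood at bases -30 to -25 from the start in C1qb and at -193 to -188 in C1qc. It was found in 2 of the 5 members with a promoter entry (C1qb, C1qc, C3, C3ar1 and C5ar1), and 23.3% of all 32851 RefSeq promoters hold it in a window of this length, on either strand. None of the 5 held TTCNNNGAA, a STAT element that 7.02% of promoters hold on either strand, nor the interferon regulatory factor element (2.98%) or the NF-kB element (0.356%) that were also searched. A match of letters is a description and not a binding site.

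All values below are log2 ratios to the +/+ pool, so 0 stands for the level of the pool and negative values for lower levels. Sdhd, the deleted gene, averaged -5.33 ± 0.60 in SDHD-ESR and -1.09 ± 0.84 in +/- arrays (SD, n = 4 each), and its low level is also what fixed the sign of the ratios, so it checks the labels only in part. Part of the values of SDHD-ESR replicate 1 lay 1 grid line away from their spots. The first 107 lines were aligned (40.2%), the next 53 were mixed and the last 106 were shifted (39.8%), and in the mixed and shifted lines this array was treated as missing. Replicates 1 and 2 of both groups shared the first slide and replicates 3 and 4 the second slide. Medians over all features were 0.00 to 0.13 on SDHD-ESR arrays and -0.22 to -0.08 on +/- arrays of the first slide, but -0.12 to 0.05 on SDHD-ESR arrays and 0.22 to 0.34 on +/- arrays of the second slide, so differences within a slide are given both as deposited and after centring each array on its median. The +/- arrays were always at the first 2 positions of a slide and SDHD-ESR arrays at the last 2, so position and genotype cannot be told apart.

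The clearest difference among the complement genes was in C1q, whose A and C chain genes were lower in SDHD-ESR than in +/- medulla, at 62.5% and 61.8% of the +/- level. C1qa, which encodes the A chain, read -0.92, -0.61, -0.89 and -1.04 in SDHD-ESR replicates 1 to 4, against -0.52, -0.43, 0.11 and 0.09 in +/- replicates 1 to 4. Every SDHD-ESR array was below every +/- array, and the +/- arrays split by slide, with the first slide low and the second close to the pool. The means were -0.87 ± 0.18 in SDHD-ESR and -0.19 ± 0.34 in +/- (SD, n = 4 each), a difference of -0.68 (SE 0.19). The exact two-sided permutation test over arrays gave p = 0.0286, the smallest that 4 against 4 arrays can give. In limma the unadjusted p was 0.00905 and the Benjamini-Hochberg adjusted p over 19532 features was 1.00. C1qa is among the genes that the study itself picked from these samples, so its direction here is not independent evidence.

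C1qc, the gene of the C chain, was measured by 10 spots, and their means were -0.91, -0.15, -0.88 and -0.56 in SDHD-ESR replicates 1 to 4, against -0.20, 0.21, 0.21 and 0.06 in +/- replicates 1 to 4. SDHD-ESR replicate 2 lay just above +/- replicate 1, both on the first slide, and otherwise the groups were apart. Means were -0.62 ± 0.35 in SDHD-ESR and 0.07 ± 0.19 in +/- (SD, n = 4 each), a difference of -0.69 (SE 0.20), with an exact p of 0.0571, an unadjusted limma p of 0.00989 and an adjusted p of 1.00.

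The copies of C1qc show how closely a single array repeats itself. Within an array their SD was 0.03 to 0.12, except on SDHD-ESR replicate 3, where 1 spot at -2.88 raised it to 0.71 while the median of the 10 spots was -0.66. With the median in place of the mean over spots, the difference between SDHD-ESR and +/- was -0.65. Differences of the single spots ran from -1.27 to -0.39 with a median of -0.59, all below 0, and in 1 of the 10 spots every SDHD-ESR array was below every +/- array. The copies also show the displaced lines of SDHD-ESR replicate 1. Its 6 aligned copies lay between -1.03 and -0.78, and its 3 copies in shifted lines were deposited at -0.57, 0.55 and -0.27 but read -0.94 to -0.81 once moved back by 1 line.

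**Figure D1:**
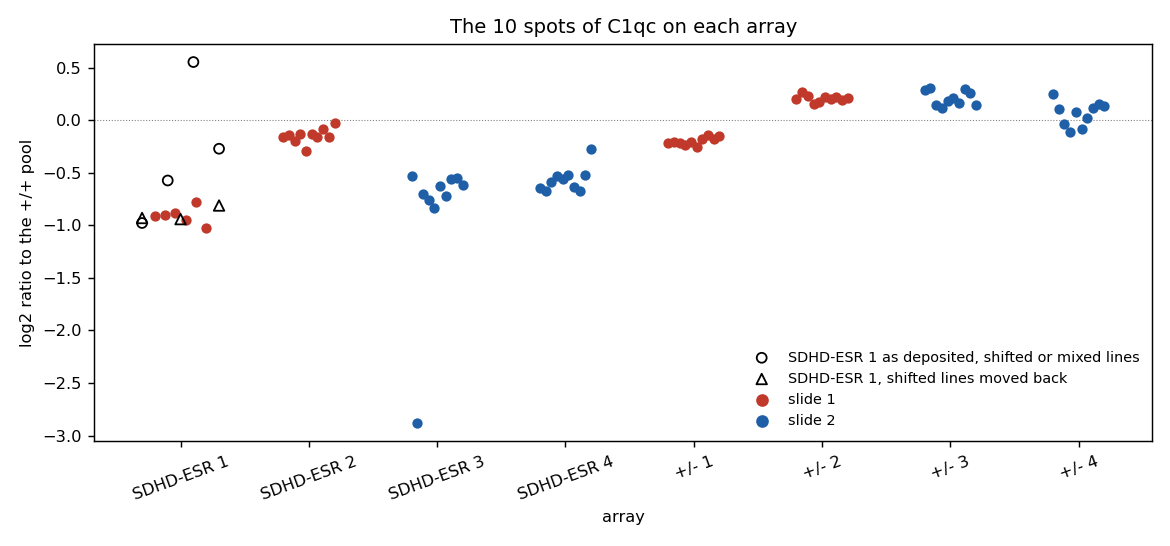
Log2 ratio to the +/+ pool (vertical axis) of each C1qc spot on each array, SDHD-ESR arrays on the left and +/- arrays on the right, coloured by slide. Open circles are the values of SDHD-ESR replicate 1 in mixed or shifted lines as deposited, and triangles are its shifted lines moved back by 1 line, which fall among its aligned copies. The single spot at -2.88 is on SDHD-ESR replicate 3.

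C1qb, the gene of the B chain, has 1 spot, in a shifted line, so SDHD-ESR replicate 1 is missing. It read -0.37, -0.81 and -0.07 in SDHD-ESR replicates 2 to 4, against -0.38, -0.31, 0.14 and 0.15 in +/- replicates 1 to 4. The groups overlapped, with SDHD-ESR replicates 2 and 4 within the range of the +/- arrays. The difference was -0.32 (SE 0.24) between -0.42 ± 0.37 in SDHD-ESR (SD, n = 3) and -0.10 ± 0.28 in +/- (SD, n = 4). The exact p was 0.257 and the unadjusted limma p was 0.230. The value moved back for SDHD-ESR replicate 1 was -0.72 (0.10 as deposited), with which the difference was -0.39 and the exact p was 0.143. Across the arrays the C1q genes varied together in part, with Pearson's r of 0.83 between C1qa and C1qc (8 arrays), 0.68 between C1qa and C1qb and 0.66 between C1qb and C1qc (7 arrays each). These points share arrays, slides and the +/+ pool.

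Within slides the deposited differences were unequal. C1qa differed by -0.29 (first slide) and by -1.07 (second slide), C1qc by -0.53 and -0.86, and C1qb by -0.02 and -0.59. After centring, which was chosen after seeing the data for the slides, the C1qa differences were -0.50 and -0.76, those of C1qc -0.75 and -0.55, and those of C1qb -0.30 and -0.28. Thus all 3 genes were lower in SDHD-ESR than in +/- on both slides in either scaling, with 2 arrays of each group on a slide (1 SDHD-ESR array for C1qb on the first) and no test. After centring, C1qa lay between -1.09 and -0.74 on SDHD-ESR arrays and between -0.35 and -0.10 on +/- arrays.

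**Figure D2:**
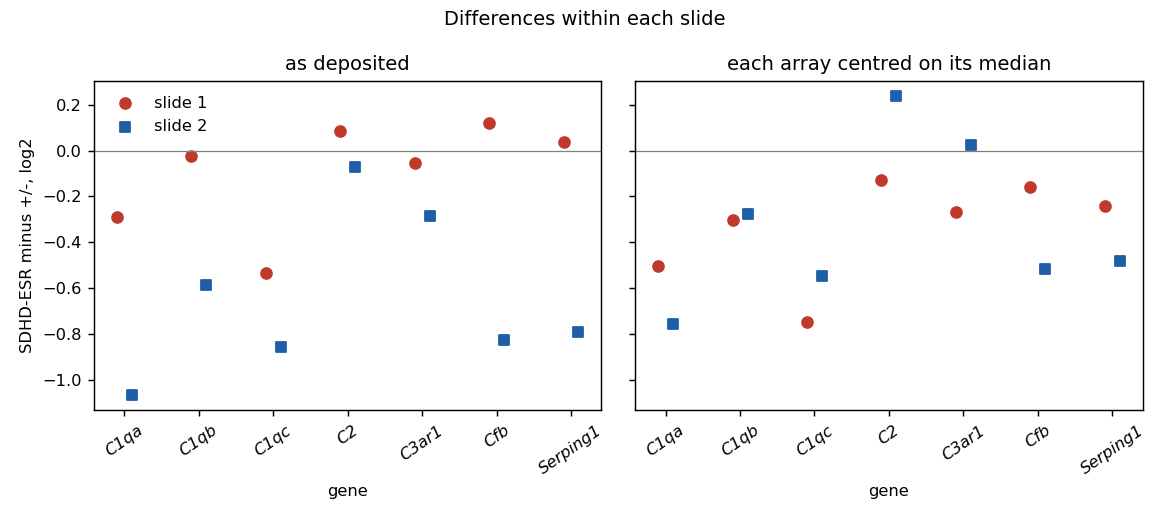
SDHD-ESR minus +/- (log2, vertical axis) of 7 complement genes within the first slide (circles) and the second slide (squares), as deposited on the left and with each array centred on its median on the right. C1qa, C1qb and C1qc are below 0 in all cases, while C2, C3ar1, Cfb and Serping1 have values on both sides of 0.

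Set against the +/+ pool, C1qa stood at 54.9% of the pool in SDHD-ESR and at 87.8% in +/-, and C1qc at 64.9% in SDHD-ESR and at 105% in +/-. The pool is 1 sample in a fixed dye, so this comparison leaves out the spread among +/+ mice and keeps any dye effect. In limma the adjusted p against the pool was 0.0984 for C1qa and 0.125 for C1qc in SDHD-ESR, and 0.461 for C1qa and 0.819 for C1qc in +/-. The scaling of the arrays decided this call. With each array centred on its median, C1qa in SDHD-ESR had an adjusted p of 0.0225 in limma, and 1.77% of all features passed. With quantile normalization C1qa had an adjusted limma p of 0.0319 and C1qc of 0.0490, and 3.25% of all features passed.

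The convertase genes gave no such separation. Cfb, the gene of factor B of the alternative pathway, read -0.39, -1.75 and -0.28 in SDHD-ESR replicates 2 to 4, against -0.16, -0.87, -0.09 and -0.28 in +/- replicates 1 to 4. It was below the pool on all 7 arrays with a value, and a single array, SDHD-ESR replicate 3, stood far below the others. The difference of -0.46 (SE 0.41; exact p = 0.457) was 0.01 without that array. It was 0.12 (first slide) and -0.83 (second slide), and after centring -0.16 and -0.52.

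C2, which lies 87 bases from Cfb on chromosome 17 and encodes the protease of the classical convertase, read 0.00, 0.00, 0.00 and -0.02 in SDHD-ESR replicates 1 to 4, against -0.17, 0.00, 0.00 and 0.12 in +/- replicates 1 to 4. On 5 arrays its ratio was within 0.01 of 0. Spots of Th and Dbh, the genes of catecholamine-producing enzymes, and of Star and Cyp11b1, steroid-producing genes of the cortex, were as near to 0 on 7 arrays, and 2.33% of named spots were within 0.01 of 0 on 4 or more arrays. The difference for C2 was 0.01 (SE 0.11; exact p = 0.943). Spot brightness was not used here, so whether such ratios were limited by the scanner was not tested, and the C2 values cannot be read as an unchanged level.

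Neither anaphylatoxin receptor gene separated the groups. C3ar1, the receptor for C3a, read -0.10, 0.78, 0.13 and -0.83 in SDHD-ESR replicates 1 to 4, against 0.06, 0.72, -0.10 and -0.03 in +/- replicates 1 to 4. The highest value of each group was on the array of replicate 2, and the SDHD-ESR arrays enclosed the range of the +/- arrays. The difference was -0.17 (SE 0.35; exact p = 0.743), and 0.10 without SDHD-ESR replicate 4. C5ar1, the receptor for C5a, had whole numbers in place of a ratio on SDHD-ESR replicates 1 and 3 and on +/- replicate 1. The other arrays read 0.32 and -0.54 in SDHD-ESR replicates 2 and 4, against 0.12, -1.06 and -0.92 in +/- replicates 2 to 4. With 2 against 3 values that overlap, the difference of 0.51 had an exact p of 0.5 and was not fitted in limma.

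Serping1 encodes the C1 inhibitor, which blocks the proteases bound to C1q. Its 2 spots averaged 0.11, -0.58 and -0.18 in SDHD-ESR replicates 2 to 4, against 0.31, -0.16, 0.37 and 0.46 in +/- replicates 1 to 4. The groups overlapped only through +/- replicate 2, which was below SDHD-ESR replicate 2 and just above replicate 4. Means were -0.22 ± 0.35 in SDHD-ESR (SD, n = 3) and 0.24 ± 0.28 in +/- (SD, n = 4), with a difference of -0.46 (SE 0.23), an unadjusted limma p of 0.0905 and an exact p of 0.114. The spots differed by -0.54 and -0.38 between SDHD-ESR and +/-, which is the same direction. The difference was 0.04 (first slide) and -0.79 (second slide), or -0.24 and -0.48 after centring. Moving back SDHD-ESR replicate 1 gave 0.40 for this array, from 1 spot, and reduced the difference to -0.30 with an exact p of 0.286.

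**Figure D3:**
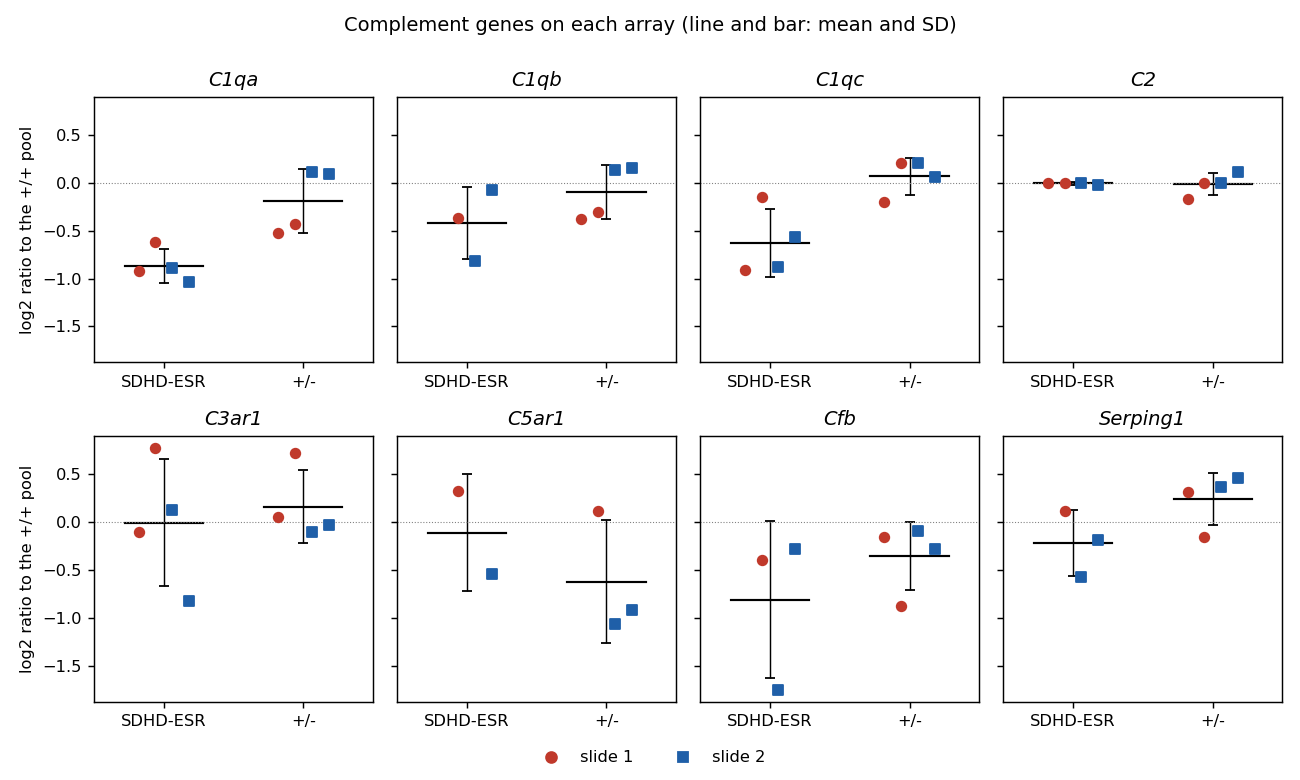
Log2 ratio to the +/+ pool (vertical axis) of 8 complement genes on each array, SDHD-ESR on the left and +/- on the right of each panel, with circles for the first slide and squares for the second. Lines are group means and bars are SD. Only for C1qa is every SDHD-ESR array below every +/- array.

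Over the 7 tested genes, 6 were lower in SDHD-ESR than in +/- and 57.3% of all 19532 features were, with a median difference of -0.46 for the complement genes and -0.05 for all features. An unadjusted limma p of 0.05 or less in the lower direction was reached by 2 of the 7 (C1qa and C1qc) and by 2.83% of all features, and by the same 2 genes in the methods' t-test. Every SDHD-ESR array was below every +/- array for 1 of the 7 and for 1.8% of all features. After adjustment in limma, 0 of the 7 passed between SDHD-ESR and +/-, where 1 feature (0.00512%) passed in all. Against the pool, 0 of the 7 passed in SDHD-ESR (0.0256% of all features) and 0 of the 7 in +/- (0% of all features). Before adjustment, 3 of the 7 (C1qa, C1qc and Cfb) were below the pool in SDHD-ESR at p of 0.05 or less, as were 7.74% of all features, while 0 of the 7 differed from the pool in +/-.

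Of 52 further complement symbols, some of them older names of genes also listed, 44 had a named spot. Of these, 33 genes were tested, by 34 features. Among these features, 22 were lower in SDHD-ESR than in +/- and 12 were higher, while 57.3% of all features were lower. The median difference of the 34 features was -0.18, against -0.05 over all features, and 0 passed after adjustment in limma. Before adjustment 2 were lower at a limma p of 0.05 or less, as were 2.83% of all features. By role, 5 of 9 features of classical and lectin pathway initiation were lower (median -0.22), as were 3 of 5 terminal pathway genes (median -0.09), 7 of 10 regulators (median -0.12) and 6 of 9 receptor features (median -0.32). The regulator and receptor counts turned with the slide, as did the whole arrays. Within the first slide 1 of 10 regulators and 3 of 9 receptor features were lower, where 26.0% of all features were. Within the second slide 8 of 10 regulators and 8 of 9 receptor features were lower, where 77.9% of all features were. The initiation count moved little, from 4 of 9 (first slide) to 5 of 9 (second slide), and 3 of 5 terminal pathway genes were lower on either slide.

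Of the 4 tested genes of the proteases that bind to C1q, 3 had a lower mean in SDHD-ESR than in +/-, and none passed in limma at an unadjusted p of 0.05. C1s1, which encodes the protease C1s, differed by -0.46 (SE 0.20) with an exact p of 0.0571. C1s2 and C1rb, close relatives of C1s1 and C1ra that were named after their values were seen, differed by -0.34 (SE 0.21) and -0.63 (SE 0.37). C1ra, a C1r protease gene, differed by 0.19 (SE 0.62), a value that rests on +/- replicate 2 at -2.27, and its difference was 1.17 (first slide) and -0.79 (second slide). C4b, the gene of the C4 component that C1s cleaves, read 0.07, 0.10 and 0.23 in SDHD-ESR replicates 2 to 4, against -0.22, 0.00, 0.00 and 0.01 in +/- replicates 1 to 4. All SDHD-ESR arrays with a value were above all +/- arrays, opposite to C1q, with a difference of 0.19 (SE 0.13), an exact p of 0.0286 and an unadjusted limma p of 0.189. Of the 34 further complement features tested, 1 separated upward in this way, as did 314 of all 19532 features. C4b was within 0.01 of 0 on 2 arrays. Cfp, the gene of properdin that stabilises the alternative convertase, differed by -0.33 (SE 0.22). Cfd had no named spot in the annotation used.

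The group means of regulators on the cell surface differed by no more than their error, with differences of 0.02 (SE 0.29) for Cd55, -0.20 (SE 0.28) for Cd59a and -0.13 (SE 0.20) for Cr1l. Cfi, the protease that inactivates C3b, read 0.46 and 3.23 in SDHD-ESR replicates 2 and 4, against -1.65, -0.14, -1.33 and -1.95 in +/- replicates 1 to 4. These do not overlap, but with 2 SDHD-ESR values the gene was not fitted, and its exact p was 0.0667. Cfi was named for this separation, so its exact p is not independent of that choice. Some other further complement genes were also high on SDHD-ESR replicate 4, namely C4bp (4.89), Mbl2 (3.21), Hc (2.77) and Vtn (2.74), named for these values. The median of the further complement features on that array was 0.14.

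Among receptors Itgb2, the β2 integrin chain of complement receptors 3 and 4, read -0.58, -0.06, -0.36 and -0.61 in SDHD-ESR replicates 1 to 4, against -0.09, -0.23, 0.15 and 0.27 in +/- replicates 1 to 4. The groups overlapped through SDHD-ESR replicate 2, and the difference was -0.43 (SE 0.18), with an unadjusted limma p of 0.0451 and an exact p of 0.0857. Itgam, the α chain of complement receptor 3, differed by -0.21 (SE 0.25) and -0.46 (SE 0.40) in the features of its 2 transcripts, and C5ar2, a second C5a receptor, by 0.75 (SE 0.60).

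Cd93, a membrane protein of endothelial and myeloid cells once described as a C1q receptor, read -0.21, 0.17, -0.23 and 0.01 in SDHD-ESR replicates 1 to 4, against 0.17, 0.46, 0.59 and 0.49 in +/- replicates 1 to 4. Every SDHD-ESR array was below every +/- array, with a difference of -0.49 (SE 0.15), an exact p of 0.0286, an unadjusted limma p of 0.0117 and an adjusted p of 1.00. Cd93 was named for this separation, which fixes its exact p. Of the 34 further complement features tested, 1 separated downward, as did 1.8% of all features.

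**Figure D4:**
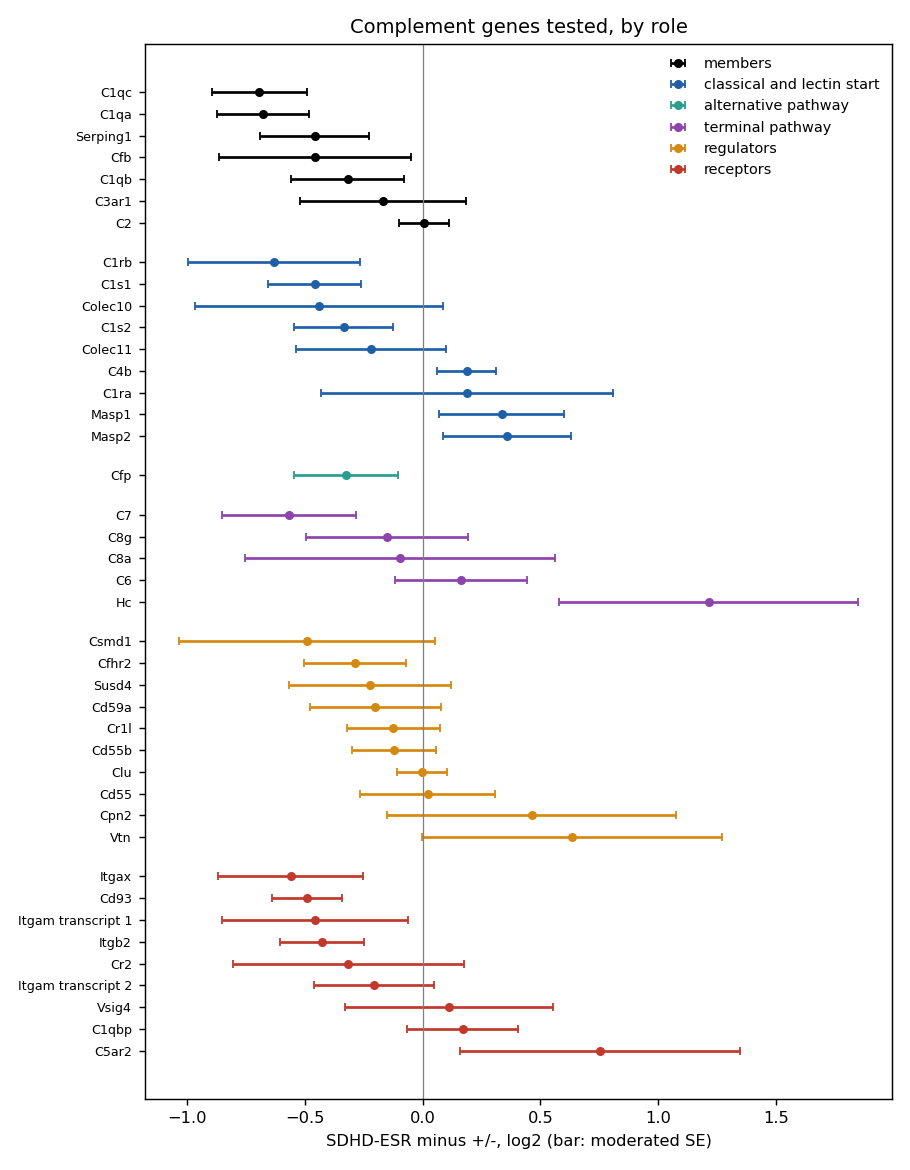
SDHD-ESR minus +/- (log2, horizontal axis) with its moderated standard error for the complement genes tested, grouped by role, with the 7 tested members on top. C1qc, C1qa and Cd93 lie to the left of 0 by more than 3 standard errors, while most other bars reach or cross 0 within 2 standard errors.

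Cd93 was also the gene whose pattern over the 8 arrays was nearest to the mean of the C1q genes (Pearson's r 0.98), followed by Sh3pxd2a (0.98), the endothelial receptor gene Tie1 (0.97), Klf7 (0.97), Kansl1l (0.97), Lama5 (0.97), Tgfb3 (0.97) and Epdr1 (0.97). Of 8067 features with a value on every array, 532 had an r above 0.8 and the median was 0.32, so a high r was common. All of these points share the array medians, the slides and the pool, and on SDHD-ESR replicate 1 the C1q mean lacks C1qb. Among complement genes r was 0.84 for Serping1 and 0.66 for Cfb (7 arrays each), 0.27 for C2 and 0.15 for C3ar1 (8 arrays each).

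Most macrophage markers had a lower mean in SDHD-ESR, as C1q did. Of 17 tested genes of the macrophage list, 16 were lower in SDHD-ESR than in +/-, with a median difference of -0.55, beside 57.3% of all features. In limma 0 of the 17 passed after adjustment and 8 were lower at an unadjusted p of 0.05, as were 2.83% of all features. Within the first slide 12 of the 17 were lower (median -0.17), beside 26.0% of all features (median 0.27). Within the second slide 16 of the 17 were lower (median -0.83), beside 77.9% of all features (median -0.33). The median of the list was between -0.81 and -0.23 on SDHD-ESR arrays and between -0.20 and 0.31 on +/- arrays, with no overlap. On SDHD-ESR replicate 1 this median rests on 8 of the 19 features of the list. Of the first listed markers, Adgre1, the gene of the macrophage antigen F4/80, differed by -0.66 (SE 0.20), with every SDHD-ESR array below every +/- array. Csf1r, the receptor that macrophages need for survival, differed by -0.25 (SE 0.25) and Cd14, a co-receptor for bacterial lipopolysaccharide, by -0.23 (SE 0.21), both with overlap. Csf1r read 0.58, -0.07, -0.52 and -0.26 in SDHD-ESR replicates 1 to 4, against -0.09, 0.13, 0.45 and 0.25 in +/- replicates 1 to 4. Its highest value was thus on SDHD-ESR replicate 1. Cd68 had too few SDHD-ESR values for a test. Across arrays r with the C1q mean was 0.96 for Fcer1g and 0.94 for Tyrobp, which encode signalling adaptors of myeloid cells and are named because of these values, but 0.81 for Adgre1 and 0.36 for Csf1r.

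The other lists of cells that a dissected medulla can hold are given by their medians and counts, and 0 of their genes passed after adjustment in limma. The median difference was -0.55 for pan-leukocyte genes (15 of 15 lower in SDHD-ESR), -0.64 for connective tissue genes (14 of 14), -0.27 for endothelial genes (12 of 12) and -0.98 for adipose tissue features (11 of 11). Of all features, 57.3% were lower. At an unadjusted limma p of 0.05, 5 pan-leukocyte, 5 connective tissue, 0 endothelial and 0 adipose features were lower, beside 2.83% of all features. Counts lower in SDHD-ESR turned with the slide, as did the whole arrays. Within the first slide they were 9 of 15 (pan-leukocyte), 7 of 14 (connective tissue), 5 of 12 (endothelial) and 2 of 11 (adipose). Of all features, 26.0% were lower there. Within the second slide the counts were 15 of 15, 14 of 14, 12 of 12 and 10 of 11, and 77.9% of all features were lower. The adipose median difference was 0.44 (first slide) and -2.40 (second slide), and +/- replicate 2, with a list median of -1.35, was nearly as low as SDHD-ESR replicates 3 and 4 at -1.89 and -1.45. It was 0.00 for adrenal cortex genes (5 of 10 lower) and 0.00 for chromaffin cell genes (5 of 11 lower), but several genes of these last lists were within 0.01 of 0 on most arrays. The list medians of SDHD-ESR and +/- arrays overlapped for pan-leukocyte, endothelial and adipose genes. For connective tissue they were barely apart, from -0.93 to 0.15 in SDHD-ESR and from 0.16 to 0.52 in +/-. The nearest arrays were replicate 2 of each group, at 0.152 (SDHD-ESR) and 0.157 (+/-). On SDHD-ESR replicate 1 the connective tissue median rests on 4 of 14 features. In a tissue sample, fewer macrophages and less C1q RNA per macrophage cannot be told apart, and the part that these lists have in the C1q difference was not tested.

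**Figure D5:**
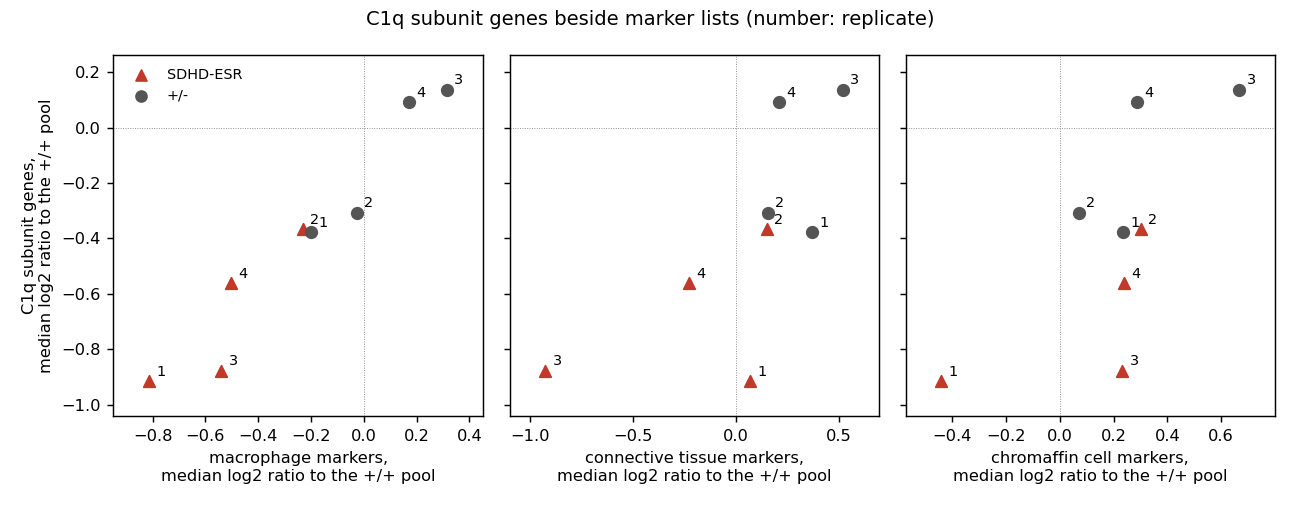
Median log2 ratio to the +/+ pool of the C1q genes (vertical axis) against that of macrophage, connective tissue and chromaffin cell markers (horizontal axes) on each array, with red triangles for SDHD-ESR, grey circles for +/- and the replicate number beside each point. For macrophage markers SDHD-ESR arrays lie to the left, from -0.81 to -0.23, and +/- arrays from -0.20 to 0.31. The C1q medians of the groups overlap, with SDHD-ESR replicate 2 at -0.37 and +/- replicate 1 at -0.38. On SDHD-ESR replicate 1 the C1q median rests on C1qa and C1qc.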

How the data were processed

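The authors' deposited values are log ratios of the 2 dyes for 45220 spots on 8 adrenal medulla arrays. The background correction, the dye normalization and the log base were not given in the sources used here. Of 313878 ratios, 8.63% equalled a base-2 logarithm of a ratio of whole numbers up to 30 (tolerance 5e-07), against 0.0191% for base 10, and the values were read as log2. The sign was turned so that Sdhd was low in SDHD-ESR, since the dye wavelengths in the methods do not settle the direction. Rows were placed on probes by the geometry of the grid, in a layout chosen with earlier results of these data known.

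Whole numbers (9.54% to 15.6% of spots per array) were dropped as stand-ins, and values of SDHD-ESR replicate 1 were used only in aligned lines. Spots of a symbol and accession were averaged. Features needed 3 or more values per group and were fitted in limma 3.58.1 (R 4.3.3, lmFit and eBayes, group means without covariates), and p was adjusted by Benjamini-Hochberg over 19532 features. Exact permutation tests over arrays used the absolute difference of means, two-sided, and were not adjusted. Precision is limited by the number of arrays, and each array holds separate mice.

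The members, gene lists and tests were chosen with earlier results of these data known. Named were all members, 12 fixed genes of the wider complement list and others of it whose groups do not overlap or pass, the 8 genes most like C1q, Sdhd, and up to 4 genes per marker list by list order. Fcer1g, Tyrobp, Th, Dbh, Star, Cyp11b1, C4bp, Mbl2, Hc and Vtn are named beyond or within these lists for their values. Alternatives were SDHD-ESR replicate 1 as deposited or moved back, centring, quantile normalization, features on all 8 arrays, spots near 0 left out, small whole numbers kept, slide or replicate number as a block, spots not averaged or their median, the methods' t-test, robust eBayes, single slides and leaving out each array. The fit was tested on simulated data. Figures were drawn with matplotlib 3.10.9 in Python 3.11.15. Promoter stretches and gene positions come from RefSeq (GRCm38.p6), where 5 of the 9 members had a promoter entry.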

Additional observations from a re-analysis of the deposited data

Results flagged for a closer look

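C2 in SDHD-ESR had 1 array apart from the others: replicate 4 read -0.024, while the other 3 SDHD-ESR arrays lay within 0.01 of 0 on the log2 scale. The gap was above Dixon's 95% critical value for 4 samples. It was 1 of 11 groups of 4 arrays examined for the complement genes, and chance alone gives about 1 in 20. The gap itself is small in size and comes from the closeness of the other ratios to 0.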

How the results depend on the processing

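C1qa and C1qc were lower in SDHD-ESR than in +/- under every alternative run, including single slides. Differences were -1.07 to -0.29 for C1qa and, where its spots were combined, -0.86 to -0.53 for C1qc. With spots not averaged, the single C1qc spots differed by -1.27 to -0.39. The smallest adjusted limma p between SDHD-ESR and +/- was 0.561 for C1qa and, with spots combined, 0.535 for C1qc. Leaving out single arrays gave -0.79 to -0.58 for C1qa and -0.85 to -0.60 for C1qc. The direction of other genes turned: Cfb was 0.014 without SDHD-ESR replicate 3, C3ar1 was 0.10 without SDHD-ESR replicate 4 and 0.017 without +/- replicate 2, and C2 was -0.046 without +/- replicate 1. Over all single arrays left out, Cfb ran from -0.72 to 0.014, C3ar1 from -0.43 to 0.10 and C2 from -0.046 to 0.050. The median difference of the complement genes was -0.024 (first slide) and -0.79 (second slide), against -0.46 over both, and -0.62 to -0.17 when single arrays were left out. Between 4 and 7 of the genes were lower in SDHD-ESR under all alternatives.

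Counts over all features moved more. The 1 feature called between SDHD-ESR and +/- became 0 with SDHD-ESR replicate 1 as deposited, quantile normalization, values on all 8 arrays, the slide as a block, spots not averaged and the methods' t-test after adjustment (721 at its unadjusted p of 0.05), and 0 to 1 when single arrays were left out. The 5 features of SDHD-ESR against the +/+ pool became 3 with SDHD-ESR replicate 1 as deposited, 8 with its lines moved back, 346 with centring, 635 with quantile normalization, 2 with values on all 8 arrays, 8 with spots not averaged, 3 with the median over spots, 1 with the methods' t-test and 0 to 3 without single arrays. For +/- against the pool, 0 features became 893 with quantile normalization, 2 with the median over spots and 0 to 2 without single arrays. The cause was not tested.

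The labels do not say that equal replicate numbers mark paired samples, and the main fit did not pair them. The correlation of the deviations of equal numbers was 0.11, 0.14, 0.00 and 0.04 for numbers 1 to 4. Unequal numbers gave -0.18 to 0.05. These correlations cannot settle whether equal numbers share more than a slide. With the replicate block the count was 0 between SDHD-ESR and +/-, 1 for SDHD-ESR against the pool and 0 for +/- against the pool. Another background correction or dye normalization was not run, since only processed ratios are held. C2 was not tested with spots near 0 left out. Values of C1qb, Cfb and Serping1 rest on 3 SDHD-ESR arrays, and dim or saturated spots could not be told from the ratios.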
